A study of Rattus norvegicus with 4 samples.

Results

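The genes described here are growth factors, the receptor tyrosine kinases (RTKs) and related receptors that bind them, the binding proteins of insulin-like growth factors, and the first substrates and adaptors inside the cell. The list holds 52 genes named by symbol, and each was matched to its NCBI rat gene ID in the peak lists. A listed m6A peak was found for 41 of the 52 genes, among 8729 genes with a peak in the series. The list has 20 ligands, 21 receptors, 5 binding proteins and 6 substrates and adaptors.

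m6A is a methyl mark on adenosines in RNA, and FTO is an enzyme that removes it. The series measured m6A by m6A-seq, in which fragments bound by an antibody to the mark (IP) are sequenced beside the same RNA without pull-down (input), and a peak is a stretch of a transcript where IP reads exceed input reads. Primary cardiac fibroblasts (CFs) from hearts of Sprague-Dawley rats no older than 3 days were compared after 48 h with the empty plasmid (Vector, labelled with the WT genotype) or with a plasmid carrying rat FTO cDNA (FTO, labelled as FTO overexpression). Each group had 1 IP and 1 input library, 4 libraries in all. The plasmid dose given for the study was 1 µg/ml. Expression from a transfected plasmid is transient and differs from cell to cell. The sources used here do not say how many animals or cultures a library holds, or whether these cells were kept in hypoxia.

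The deposited data are 1 peak list per group, with a length in base pairs (bp), a transcript and a gene ID for each peak. The Vector list held 21249 peaks on 7894 genes, with a median length of 203 bp, and the FTO list held 17796 peaks on 7297 genes, with a median length of 228 bp. Sequencing depth is unknown, and positions, peak heights and enrichment were not used here. With 1 library pair per group no difference has a replicate check and no p-value is given, so numbers of peaks are set side by side as a description of these libraries. Intervals are 95% Wilson intervals of a share or order-statistic intervals of a median. They cover counting error only, and peaks of the same gene are not independent. A Vector peak and an FTO peak were taken as a pair, each used once, when gene and length were equal, which does not show that they lie at the same place. A methylation difference and a difference in RNA level cannot be told apart from a list of peaks, nor can fewer cells of a type and less RNA per cell.

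The transfected gene was looked at first. Fto had 3 peaks in the Vector list, of 120, 144 and 144 bp, and 9 peaks in the FTO list, the longest of 2021 bp. The list labelled FTO thus had the higher number of Fto peaks. Reads from the plasmid and from the rat's own gene were not separated.

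The fibroblast label was checked against marker genes, for which a listed peak shows only that RNA of the gene was present. Of 14 cardiac fibroblast markers, 6 had a Vector peak and 6 an FTO peak, with 15 and 12 peaks in sum, and Pdgfra carried the most, with 7 and 6. Among the others, Tcf21, a transcription factor of the cardiac fibroblast lineage, had 1 peak in each list, and Thy1, a fibroblast surface protein, had 2 and 1. Fn1, which encodes fibronectin, had 3 and 1, Lum had 1 and 2, Postn had 1 and 0, and Ddr2 had 0 and 1. The defining matrix and cytoskeletal markers Col1a1, Col1a2, Col3a1, Dcn and Vim had no peak in either list, nor had S100a4 and Mfap5. In all, 7 of the 14 markers had a peak in at least 1 list.

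Markers of other heart cells were listed too. Of 8 cardiomyocyte markers, 5 had a Vector peak and 4 an FTO peak, with 22 and 24 peaks in sum. The sarcomere genes Myh7, Myh6 and Tnnt2 had 8, 7 and 4 Vector peaks and 5, 7 and 7 FTO peaks, and the calcium channel gene Ryr2 had 2 and 5. Actn2 had 1 Vector peak and 0 FTO peaks, and Ttn, Nppa and Actc1 had none. Myh6 and Myh7 are near-identical neighbours, and reads shared between them make their numbers uncertain. Of 8 endothelial markers, 1 had a Vector peak and 2 had an FTO peak, with 7 and 6 peaks in sum. These were Flt1 with 7 and 4 and Tek with 0 and 2, while the defining markers Pecam1, Cdh5, Kdr and Vwf, and also Tie1 and Emcn, had none. Of 7 macrophage markers, 5 and 4 had a peak, with 16 and 10 peaks in sum. Ptprc, the pan-leukocyte antigen, carried 10 and 7 of them, Csf1r 2 and 1, C1qa 2 and 0, C1qb 1 and 0, Cd14 1 and 1 and Cd68 0 and 1, and Adgre1 had none. Of 6 smooth muscle and pericyte markers, 3 had a peak in each list, with 22 peaks in sum in both, 17 and 15 of them on Myh11, 3 and 6 on Cspg4 and 2 and 1 on Notch3. Rgs5, Cnn1 and Acta2 had none. Peaks on markers of other heart cells were thus listed in both groups, and their part in the values of the growth factor genes was not tested.

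RTKs span the cell membrane, and a bound growth factor brings receptor chains together so that they phosphorylate each other on tyrosines. Adaptors such as FRS2, GAB1 and the insulin receptor substrates dock there, and the exchange factors SOS1 and SOS2 then load RAS with GTP, which starts the MAP kinase cascade beside the PI3 kinase and AKT branch. In the heart, platelet-derived, fibroblast and insulin-like growth factors act on fibroblasts as signals for growth and survival, and the discoidin domain receptors sense collagen.

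Of the 41 growth factor and receptor genes with a peak, 22 had fewer FTO than Vector peaks (53.7%, 38.7% to 67.9%), beside 41.4% of all genes with a peak. As many peaks in both lists were found for 11 (26.8%, 15.7% to 41.9%), beside 37.4% of all genes, and more FTO peaks for 8 (19.5%, 10.2% to 34.0%), beside 21.2%. All 3 shares of all genes lay within these intervals. The FTO list is the shorter one, and after scaling of the FTO numbers by 1.19, the ratio of both list sizes, and rounding to whole peaks, the numbers with fewer, as many and more were 20, 12 and 9 for these genes. The same scaling changed the numbers over all genes from 3613, 3264 and 1852 to 3158, 2969 and 2602. In sum these genes carried 102 Vector peaks and 82 FTO peaks, an FTO to Vector ratio of 0.804 beside 0.837 over all genes. The median difference per gene, FTO minus Vector, was -1 peak, beside 0 over all genes. The median peak was 257 bp long in the Vector list (192 to 385 bp) and 267.5 bp in the FTO list (197 to 394 bp), so the intervals overlapped.

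**Figure D1:**
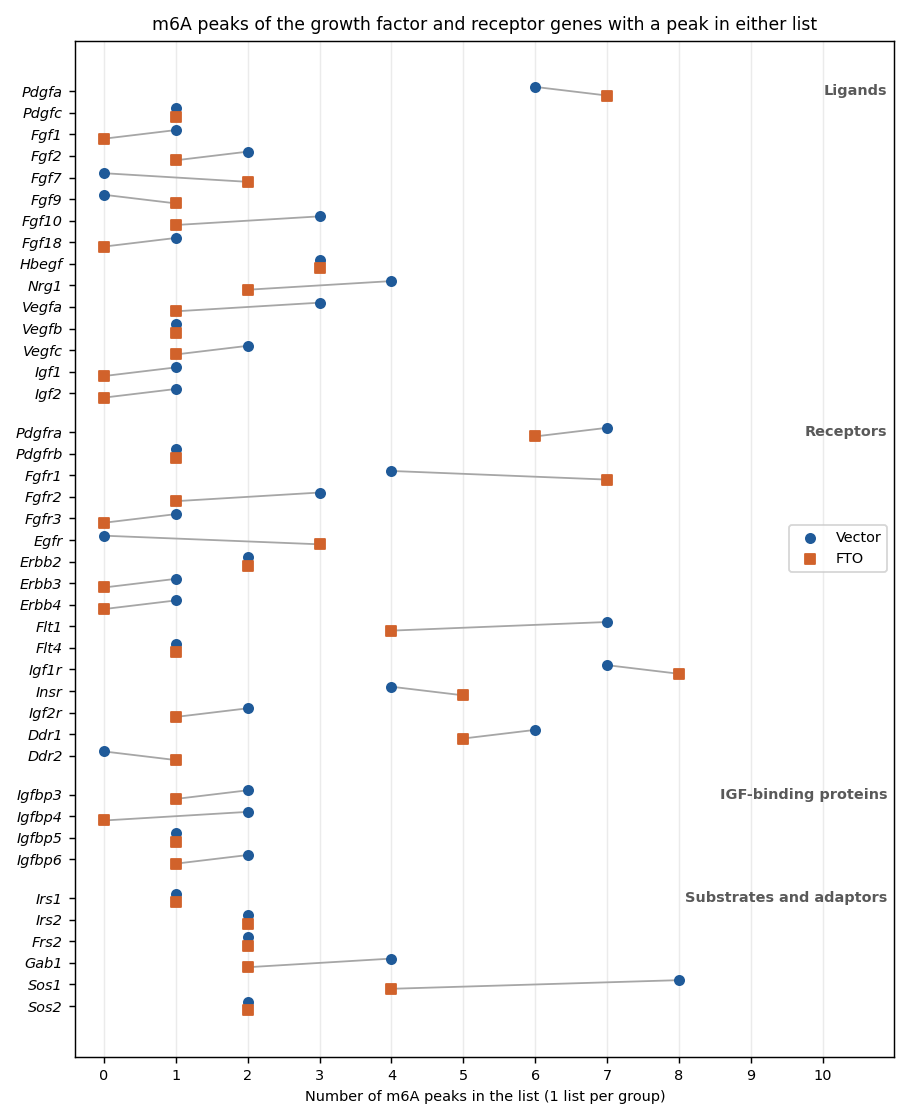
Number of m6A peaks (x axis) of each of the 41 growth factor, receptor, binding protein and adaptor genes with a peak (y axis), in the Vector list (circles) and the FTO list (squares), 1 list per group. Fgfr1 and Egfr stand out to the right in FTO by 3 peaks, and Sos1 and Flt1 stand further left, with 4 FTO peaks each.

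Pairing by length gave 46 common peaks on these genes. Of the 102 Vector peaks, 56 had no FTO partner of equal length (54.9%, 45.2% to 64.2%), beside 42.7% over all genes. Among the 82 FTO peaks, 36 had no Vector partner (43.9%, 33.7% to 54.7%), beside 31.6% over all genes. Both intervals lie above the value of all genes, though not when lengths within 10% were paired. The shares were then 43.1% (33.9% to 52.8%) beside 36.2% for Vector peaks and 29.3% (20.5% to 39.9%) beside 23.8% for FTO peaks. With any peak of the same gene as partner they were 32.4% beside 27.8% and 15.9% beside 13.8%. Growth factor and receptor genes thus had a higher share of peaks with no equal length than all genes, and part of these peaks differed in length by 10% or less.

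**Figure D2:**
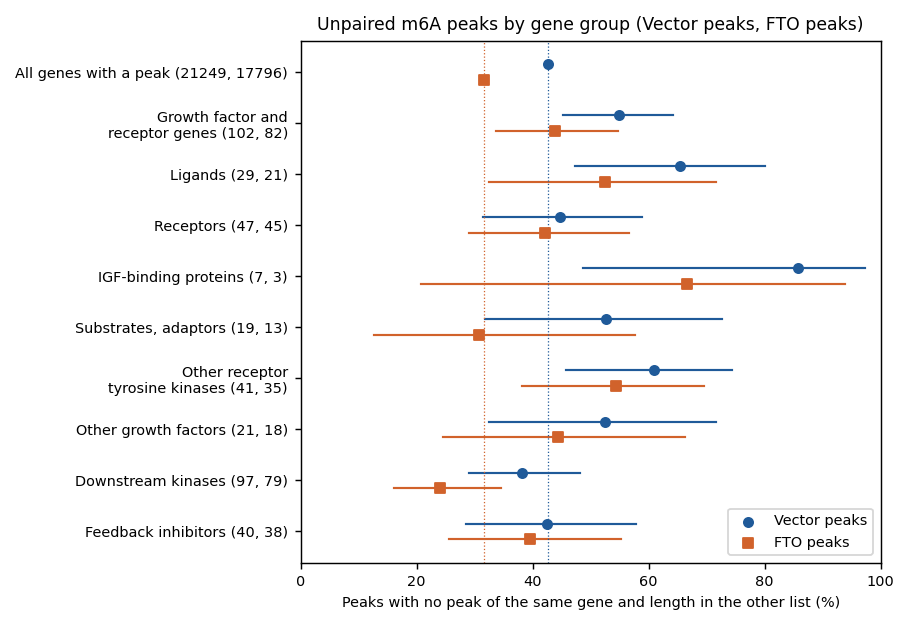
Percent of peaks without a partner of equal length on the same gene in the other list (x axis), with 95% Wilson intervals as bars, for all 52 genes, for each role and for the further gene lists (y axis), Vector and FTO separately. Dotted lines mark all genes, at 42.7% for Vector and 31.6% for FTO peaks, and the ligands lie at 65.5% and 52.4%.

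Among 29 genes with a peak in both lists, 14 had fewer FTO peaks, 11 as many and 4 more. In 8 of the 14 with fewer, every FTO length was also a Vector length. These numbers are given without the matching values over all genes, so they show nothing particular to the growth factor and receptor genes. The set of lengths was the same in both lists for Pdgfc, Pdgfrb and Irs1, 3 of 41 genes (7.32%, 2.52% to 19.4%) beside 21.0% over all genes, a value above the interval. Each of the 3 had a single peak. Listed for Vector alone were 8 genes (19.5%, beside 16.4% of all genes), namely Fgf1, Fgf18, Igf1, Igf2, Fgfr3, Erbb3, Erbb4 and Igfbp4. Fgf7, Fgf9, Egfr and Ddr2 were listed for FTO alone, 4 genes (9.76%, beside 9.57%). Of these 12 genes 9 had a single peak, so most were in 1 list alone by 1 call. With peaks of at least 100 bp Igf1 had none in either list, and with peaks of at least 200 bp Fgfr3, Ddr2 and Igf2r had none either. No peak in either list was found for 11 genes, which are Pdgfb, Pdgfd, Areg, Ereg, Hgf, Fgfr4, Kdr, Met, Axl, Kit and Igfbp2. That says nothing of their RNA level.

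The ligands had 29 Vector peaks and 21 FTO peaks on 15 of 20 genes. Fewer FTO peaks were listed for 9 of the 15, as many for 3 and more for 3, beside 41.4%, 37.4% and 21.2% of all genes. No partner of equal length was found for 65.5% of the Vector peaks (47.3% to 80.1%) and 52.4% of the FTO peaks (32.4% to 71.7%). Both intervals lie above the shares over all genes, but with lengths within 10% they hold them, at 51.7% (34.4% to 68.6%) beside 36.2% and 33.3% (17.2% to 54.6%) beside 23.8%.

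Pdgfa (gene ID 25266) encodes the A chain of platelet-derived growth factor, a mitogen for fibroblasts that acts through PDGFRA. Its Vector peaks, in the order of their peak numbers, were 225, 329, 105, 188, 127 and 291 bp long. Its FTO peaks were 225, 302, 97, 105, 188, 127 and 291 bp long. Thus 5 lengths were equal, a peak of 329 bp stood beside one of 302 bp, and the additional FTO peak was the shortest, at 97 bp. With peaks of at least 100 bp Pdgfa had as many peaks in both lists, and with FTO numbers scaled by 1.19 the difference was 2.36 peaks. Pdgfc, another ligand of this family, had a single peak of 1581 bp in both. The PDGF ligands therefore had 7 Vector and 8 FTO peaks, of which 6 had equal lengths.

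The fibroblast growth factors, ligands of the FGF receptors, differed more in which genes were listed. Fgf1 had 1 Vector peak of 203 bp and Fgf18 had 1 of 267 bp, and neither had an FTO peak. Fgf7, a factor that mesenchymal cells make for epithelial ones, had no Vector peak and 2 FTO peaks of 394 and 104 bp. Fgf9 had no Vector peak and 1 FTO peak of 899 bp. Fgf10, like Fgf7 a mesenchymal factor that acts through FGFR2, had Vector peaks of 1104, 104 and 1572 bp and an FTO peak of 104 bp. The short peak was thus the one with an equal length in the FTO list, and both long ones had none. Fgf2, a mitogen of fibroblasts, had 2 Vector peaks of 104 and 558 bp and 1 FTO peak of 433 bp. Over the 6 genes there were 7 Vector and 5 FTO peaks, and 1 length in common.

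Ligands of the ERBB receptors were Hbegf and Nrg1. Hbegf, which encodes a membrane-anchored ligand of EGFR, had 3 peaks in each list, between 178 and 1411 bp, and 1 length was equal. Nrg1, the neuregulin through which endocardial and endothelial cells act on ERBB receptors of the heart, had Vector peaks of 444, 444, 178 and 1646 bp. Its FTO peaks were 204 and 769 bp long. No Nrg1 length was common to the lists. With peaks of at least 200 bp, or with repeated lengths counted once, the difference was 1 peak, with fewer in FTO. Nrg1 peaks were listed on 3 transcripts, and both Vector peaks of 444 bp were on different ones.

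The vascular endothelial growth factors, which act on FLT1, KDR and FLT4, had 6 Vector and 3 FTO peaks. Vegfa, the main angiogenic factor of this family, had Vector peaks of 1080, 197 and 1909 bp and an FTO peak of 1909 bp. Vegfc, a growth factor of lymphatic vessels, had 2 Vector peaks of 202 and 632 bp and 1 FTO peak of 632 bp. In both genes the longest Vector peak was listed at equal length in FTO and the others were not. Vegfb had 1 peak in each list, of 619 and 603 bp. The insulin-like growth factors, ligands of IGF1R, were in the Vector list alone. Igf1 had a peak of 52 bp, and Igf2 had one of 1792 bp.

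The receptors had 47 Vector and 45 FTO peaks on 16 of 21 genes, an FTO to Vector ratio of 0.957 beside 0.837 over all genes. Fewer FTO peaks were listed for 8 receptors, as many for 3 and more for 5, beside 41.4%, 37.4% and 21.2% of all genes. The shares of peaks with no partner of equal length were 44.7% for Vector (31.4% to 58.8%) and 42.2% for FTO (29.0% to 56.7%). The intervals hold the shares over all genes.

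Pdgfra (gene ID 25267), the receptor of PDGF A and a marker of cardiac fibroblasts, had 7 Vector and 6 FTO peaks, between 106 and 3262 bp. All 6 FTO lengths were also in the Vector list, and the additional Vector peak was 112 bp long. Scaled by 1.19, the FTO number lay 0.164 peaks above the Vector number, which is no difference in whole peaks. Pdgfrb, the receptor of PDGF B and a marker of pericytes as well as fibroblasts, had a single peak of 1870 bp in both lists. These 2 receptors shared 7 lengths out of 8 Vector and 7 FTO peaks.

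Fgfr1 (gene ID 79114), the main FGF receptor of mesenchymal cells, had Vector peaks of 146, 191, 124 and 604 bp. Its FTO peaks were 336, 197, 145, 173, 267, 185 and 604 bp long. FTO thus had 3 more peaks, and 604 bp was the sole equal length, while the lengths of 145 and 146 bp differed by 1 bp. With peaks of at least 200 bp the difference was 2 peaks. Fgfr2, the receptor of FGF7 and FGF10, had Vector peaks of 1677, 302 and 453 bp and an FTO peak of 1677 bp. Fgfr3 had a Vector peak of 192 bp and no FTO peak. Over the 4 FGF receptors both lists held 8 peaks, so fewer peaks on Fgfr2 and Fgfr3 stood beside more on Fgfr1.

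**Figure D3:**
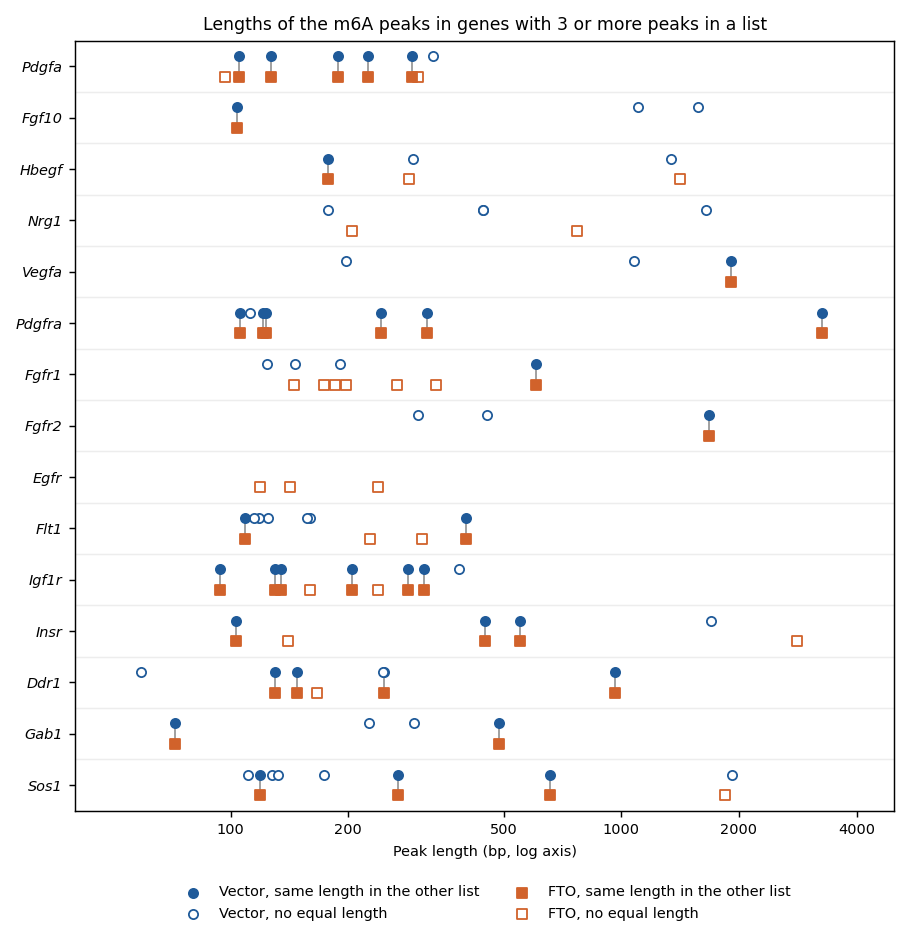
Length in bp (x axis, log scale) of every peak of the 15 genes with at least 3 peaks in a list (y axis), Vector above FTO for each gene. Filled points have a peak of equal length in the other list and open points do not, and the peak pair of Nrg1 at 444 bp overlaps as 1 point.

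The 4 ERBB receptors had 4 Vector and 5 FTO peaks, mostly on different genes. Egfr (gene ID 24329), the receptor of EGF and HBEGF, had no Vector peak and FTO peaks of 239, 119 and 142 bp. With peaks of at least 200 bp it had 1 FTO peak. Erbb2, which has no ligand of its own and pairs with the other members, had 2 peaks in each list between 139 and 1198 bp, with 1198 bp in both. The neuregulin receptors Erbb3 and Erbb4 had 1 Vector peak each, of 1115 and 546 bp, and no FTO peak. Genes for the neuregulin receptors and for EGFR were thus listed in opposite lists, on 1 to 3 peaks each.

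Flt1 (gene ID 54251) encodes a VEGF receptor best known from endothelial cells. Its Vector peaks were 400, 125, 118, 160, 115, 109 and 157 bp long. Its FTO peaks were 400, 227, 109 and 309 bp long. The Vector list had more Flt1 peaks, and all but the 400 bp peak were under 200 bp. With peaks of at least 200 bp the difference turned, to 2 peaks more in FTO. Flt4, the receptor of VEGFC, had 1 peak in each list, of 1764 and 1716 bp.

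Receptors of insulin and its relatives had 13 Vector and 14 FTO peaks, with 10 equal lengths. Igf1r, the receptor through which IGF1 and IGF2 signal, had 7 Vector and 8 FTO peaks between 94 and 385 bp, and 6 of the lengths were equal. Insr, the insulin receptor, had 4 Vector and 5 FTO peaks between 103 and 2821 bp, with 3 equal lengths. Its longest peak was 1698 bp in the Vector list and 2821 bp in the FTO list. With peaks of at least 200 bp Igf1r and Insr each had as many peaks in both lists. Igf2r, a receptor without kinase activity that clears IGF2, had 2 Vector peaks of 141 and 144 bp and 1 FTO peak of 144 bp. Igf1 and Igf2 had no FTO peak, whereas each of these 3 receptors had at least 1 length in both lists.

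The collagen receptors Ddr1 and Ddr2 had 6 peaks in each list. Ddr1 had 6 Vector and 5 FTO peaks between 59 and 962 bp, on 3 transcripts, and 4 lengths were equal. The shortest Vector peak, of 59 bp, had no FTO partner, and with peaks of at least 100 bp the numbers were the same. Among peaks of at least 200 bp Vector had 1 more. Ddr2, which mesenchymal cells such as fibroblasts use to sense fibrillar collagen, had no Vector peak and 1 FTO peak of 150 bp.

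IGF-binding proteins hold IGF1 and IGF2 outside the cell and set how much reaches the receptor. They had 7 Vector and 3 FTO peaks on 4 of 5 genes. Fewer FTO peaks were listed for 3 of the 4, as many for 1 and more for 0. The shares over all genes were 41.4%, 37.4% and 21.2%, and 4 genes are too few to set against them. Igfbp4 had Vector peaks of 588 and 146 bp and no FTO peak. Igfbp3, the main carrier of IGFs in blood, had 2 Vector peaks of 141 and 500 bp and 1 FTO peak of 500 bp. Igfbp6, which prefers IGF2, had 2 Vector peaks of 125 and 476 bp and 1 FTO peak of 438 bp. Igfbp5 had 1 peak in each list, of 4148 and 4414 bp. With 6 of 7 Vector peaks the share without an equal length was 85.7% (48.7% to 97.4%) beside 42.7% over all genes, and with 2 of 3 FTO peaks it was 66.7% (20.8% to 93.9%) beside 31.6%, on few peaks. When lengths within 10% were paired, 57.1% of the Vector peaks (25.0% to 84.2%) had no partner, beside 36.2% over all genes, and 0 of the 3 FTO peaks. Without the peaks under 200 bp, 4 Vector and 3 FTO peaks were left, and Igfbp3 and Igfbp6 had as many in both lists.

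Substrates and adaptors were the role in which every gene was in both lists. They had 19 Vector and 13 FTO peaks on 6 genes, with fewer FTO peaks for 2, as many for 4 and more for 0. The shares over all genes were 41.4%, 37.4% and 21.2%, and 6 genes are too few to set against them. No partner was found for 52.6% of the Vector peaks (31.7% to 72.7%) and 30.8% of the FTO peaks (12.7% to 57.6%), and both intervals hold the share over all genes.

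Sos1 (gene ID 313845), an exchange factor that loads RAS with GTP, had the largest difference of the 52 genes in the numbers as listed, though not after scaling by 1.19, when FTO minus Vector was -3.22 for Sos1, 4.36 for Fgfr1 and 3.58 for Egfr. Its Vector peaks were 1920, 119, 268, 173, 656, 128, 111 and 132 bp long. Its FTO peaks were 1847, 119, 268 and 656 bp long. Beside 3 equal lengths and the long peaks of 1920 and 1847 bp, the Vector list thus had 4 more peaks, of 173, 128, 111 and 132 bp. With peaks of at least 200 bp Sos1 had as many peaks in both lists. Its relative Sos2 had 2 peaks in each list, between 656 and 1559 bp, with 656 bp in both.

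Gab1, a docking protein that recruits PI3 kinase and the phosphatase PTPN11, had Vector peaks of 72, 295, 226 and 487 bp. Its FTO peaks were 72 and 487 bp long, so both had an equal Vector length. Irs1, the first substrate of the insulin and IGF1 receptors, had a single peak of 4309 bp in both lists. Irs2, its relative, had 2 peaks in each list, between 2325 and 4064 bp, with 4064 bp in both. Frs2, the docking protein of FGF receptors, had 2 peaks in each list between 164 and 1781 bp, with 164 bp in both.

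Peaks of at least 1000 bp were 21.6% of the Vector peaks of these genes (14.7% to 30.5%), beside 14.2% over all genes, and 19.5% of their FTO peaks (12.4% to 29.4%), beside 16.7%. The FTO interval holds the share over all genes. Of the 22 long Vector peaks, 8 had an equal FTO length (36.4%, 19.7% to 57.0%), beside 52.6% over all genes. Of the other 14, an FTO peak within 10% of the length was found for 6, in Hbegf, Flt4, Igfbp5, Irs2, Frs2 and Sos1. Another 2 were in Igf2 and Erbb3, which had no FTO peak. These counts of 6 and 2 are given without the matching values over all genes, so they show nothing particular to these genes. For Vector peaks under 200 bp the share with an equal length was 45.2% (31.2% to 60.1%) beside 54.7%, and for those from 200 bp to under 1000 bp it was 50.0% (34.8% to 65.2%) beside 62.4%. Pairing was thus below that of all genes in each of the 3 length classes, with intervals that hold the value of all genes. Of 23 genes with at least 2 Vector peaks and an FTO peak, 12 had an FTO peak as long as the longest of these (52.2%, 33.0% to 70.8%), beside 65.8% over all genes.

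Genes of the same pathway outside the list of 52 were counted in the same way. Over all genes the shares with fewer, as many and more FTO peaks were 41.4%, 37.4% and 21.2%. Of 31 other RTKs, 16 had a peak, with fewer FTO peaks for 6, as many for 5 and more for 5, and with 41 Vector and 35 FTO peaks. After scaling and rounding, 6 had fewer and 7 more, and with peaks of at least 200 bp 3 had fewer and 6 more. The direction of the balance thus depended on the setting. Over all genes 3158 had fewer and 2602 more after scaling, and 2043 and 1384 with peaks of at least 200 bp. The named genes with the largest differences were Tek and 4 Eph receptors, which bind ephrins on neighbouring cells. Epha7 had 6 Vector peaks and 0 FTO peaks, Ephb2 had 6 and 3, Ephb3 had 4 and 1, and Ephb4, a receptor of venous endothelium, had 3 and 7. Tek, the angiopoietin receptor, had 0 and 2. The share with no partner was 61.0% for Vector peaks (45.7% to 74.3%) and 54.3% for FTO peaks (38.2% to 69.5%), and both intervals lie above the shares over all genes. With lengths within 10% they hold them, at 46.3% (32.1% to 61.3%) and 37.1% (23.2% to 53.7%).

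Of 29 other growth factors and binding proteins, 11 had a peak. Fewer FTO peaks were listed for 4 of the 11, as many for 3 and more for 4, beside 41.4%, 37.4% and 21.2% of all genes. Their sums were 21 Vector and 18 FTO peaks. Angpt2, a ligand of TEK, had 4 Vector peaks and 0 FTO peaks, while Angpt1, the activating ligand of the same receptor, had 4 and 3. Pgf, a ligand of FLT1, had 4 and 5, and Gas6, the ligand of AXL, had 3 and 4. Tgfa and Kitlg, ligands of EGFR and KIT, had 0 and 1 each, and Csf1 and Ntf3, ligands of CSF1R and NTRK3, had 1 and 0 each. Except for Angpt2, these genes differed by a single peak.

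Of 43 genes of the downstream kinase pathway, 33 had a peak. Fewer FTO peaks were listed for 15 of the 33, as many for 12 and more for 6, beside 41.4%, 37.4% and 21.2% of all genes. Scaled and rounded in the same way, the numbers with fewer and more were 13 and 11, beside 3158 and 2602 over all genes. The genes had 97 Vector and 79 FTO peaks, and 38.1% of the former (29.1% to 48.1%) and 24.1% of the latter (16.0% to 34.5%) had no partner. Jak1, a kinase of cytokine receptors, had 9 Vector and 5 FTO peaks, and all 5 had an equal Vector length. Pik3ca, a catalytic subunit of PI3 kinase, had 3 and 1. Akt2 and Rps6ka1, kinases of the AKT and MAP kinase branches, had 4 and 2 each, and Plcg1, a phospholipase that RTKs activate, had 3 and 1. Ptpn11, the phosphatase SHP2 that relays signals to RAS, had 9 and 11 and was the only gene named here with more in FTO. The intervals of both shares of unpaired peaks hold the shares over all genes.

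Of 21 feedback inhibitors of RTK signalling, 19 had a peak. Fewer FTO peaks were listed for 6 of the 19, as many for 8 and more for 5, beside 41.4%, 37.4% and 21.2% of all genes. After scaling and rounding, the numbers with fewer and more were 5 and 8, beside 3158 and 2602 over all genes. The feedback inhibitors had 40 Vector and 38 FTO peaks, with no partner for 42.5% (28.5% to 57.8%) and 39.5% (25.6% to 55.3%). Cbl, a ubiquitin ligase that sends active receptors to degradation, had 3 Vector peaks and 1 FTO peak, whereas its relative Cblb had 3 and 4. Spry1 had 2 and 1 and Spred1 had 1 and 0, both inhibitors of the RAS pathway, and Spred3 had 0 and 1. The LRIG proteins, membrane inhibitors of growth factor receptors, went in both directions, with 0 and 1 for Lrig1, 1 and 2 for Lrig2 and 3 and 2 for Lrig3. Errfi1, an inhibitor of EGFR, had 2 and 1, the phosphatase gene Dusp5 had 1 and 2, and Ptpn1, a phosphatase of the insulin receptor, had 6 and 5. All of these except Cbl differed by a single peak.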

How the data were processed

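Peak length in bp is the only measurement in the 2 lists the authors deposited, 1 per group from an IP and an input library, and it is not normalized. The submitters' processing notes name cutadapt 1.9.3, HISAT2 2.0.4 and rn6. The peak names begin with MACS, and the settings of the peak caller are not given in the sources used here. Peaks without a gene ID, 248 in the Vector and 213 in the FTO list, were counted by transcript, and these transcripts are within the totals of genes. Symbols came from the RefSeq table of GRCr8, whose coordinates were not used since its build differs, and which matched all 52 genes. Members and lists were chosen with earlier results of these data known, and the study names Pdgfa from the same libraries.

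Peaks were counted per gene, and paired by gene and length. The pairing code was run on a simulated list in which altered lengths could equal no Vector length. That checked the counting alone and cannot show how often unrelated peaks have equal lengths. Named with all lengths were genes that differed by at least 2 peaks or were in 1 list alone, and Pdgfa. In further lists the 5 largest differences, ties included, and genes in 1 list alone with at least 3 peaks were named. A gene that this rule takes is not reported here. Alternatives were minimum lengths of 100 and 200 bp, gene assignment by transcript, repeated lengths counted once, scaling by list size with rounding to whole peaks, and pairing by lengths within 10%, by any peak of the gene, by transcript or by order. Python 3.11.15, numpy 2.4.6, pandas 2.3.3, scipy 1.17.1 and matplotlib 3.10.9 were used.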

Additional observations from a re-analysis of the deposited data

How the results depend on the processing

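Assigning peaks by transcript gave no peak a gene in either list, so it could change no value and is left out of the following numbers. Of 122 alternative values of counts, shares and medians, 100 stayed within 1.5 times the count or within the interval of the share or median. Of 118 values for single genes without scaling, which shifts every gene with an FTO peak, 99 were the same and 1 reversed. When peaks under 200 bp were left out, 14 growth factor and receptor genes had fewer FTO peaks, 18 as many and 5 more. Over all genes 2043 had fewer, 3996 as many and 1384 more, so as many was the largest class in both. Fewer were then listed for 3 other RTKs and 8 downstream genes, and more for 1 downstream gene. The peaks numbered 60 in Vector and 50 in FTO, with 24 and 23 on receptors, 4 Vector peaks on binding proteins and 12 on substrates, and the medians were 555 and 526 bp. FTO minus Vector peaks of Flt1 came to 2. The same difference came to 0 for Fgf2 and Pdgfra, to 1 for Fgf7, and to -1 for Vegfa, Igfbp4 and Erbb2. Fewer peaks follow from the rule itself, and beyond that the cause was not tested. With FTO numbers scaled by 1.19 and rounded, 3 other RTKs had as many, and 11 downstream genes and 8 feedback inhibitors had more. Over all genes 2969 then had as many and 2602 more. FTO minus Vector peaks of Pdgfra came to 0.164 before rounding, by the multiplication itself. With lengths within 10%, 43.1% of Vector and 29.3% of FTO peaks had no partner, and with any peak of the same gene 32.4% and 15.9%, since looser rules pair more peaks.

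Leaving out replicates was not possible. No paired analysis was possible because 1 IP and 1 input library per group leave no numbered replicates. Depth is unknown and limits every comparison of peak numbers, and positions, heights and RNA levels were not used.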

Other observations

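Peak numbers in the names have gaps throughout both lists, with 21249 Vector peaks numbered up to 59557 and 17796 FTO peaks up to 52060. Between the first and the last listed peak of a growth factor or receptor gene, 59 Vector and 28 FTO numbers were not listed for that gene, and 0 of them were listed for any other gene. Pdgfra had 9 such numbers for Vector and 1 for FTO, Igf1r had 9 and 2, and Flt1 had 5 and 5. Egfr had 5 in the FTO list. These genes are given as examples chosen after their values were seen. The same count over all genes was not made, so these values show nothing particular to the genes. What the unlisted numbers stand for was not tested.

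Peaks on more than 1 transcript were listed for 5 of the 41 genes with a peak (12.2%), namely Pdgfa, Nrg1 and Ddr1 with 3 transcripts and Erbb2 and Gab1 with 2, beside 11.6% of all genes.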
